A study of Mus musculus with 9 samples.

Results

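The transcriptomes of D2.0R cells on basement membrane extract (BME) and on BME plus type I collagen (COL1) were compared at the same time of culture, day 5. D2.0R is a mouse mammary tumour cell line that stays quiescent on BME and proliferates once COL1 is added, so the comparison asks which genes differ with the matrix when time in culture is equal. RNA was sequenced from 3 cultures on BME (BME day 5) and 3 on BME plus COL1 (BME plus COL1 day 5), each a biological replicate, and 3 cultures on BME at day 1 entered the estimate of the spread. Both matrices hold BME, a growth factor-reduced extract rich in laminin and collagen IV, and both media were low-glucose DMEM with 2% serum. The medium of the BME cultures held 2% BME, and that of the others held BME with COL1, with the share of BME not stated. One cell line was used, untreated, and no animal tissue was sampled. Genes were kept where the mean over the 6 day 5 libraries was at least 1 FPKM (fragments per kilobase of transcript, scaled to the mapped fragments of a library, a level that is comparable between genes because it is scaled by length), which held for 10456 of the 23309 gene symbols. Genes of autophagy and of the lysosome are not described.

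Adherent cells read a matrix through integrins, heterodimers that bind laminin, collagen or fibronectin outside the cell and actin through focal adhesions inside it. Laminin and collagen IV form the sheet under epithelia, whereas fibrillar type I collagen is the stiff fibre network of connective tissue. In many cell types stiff or fibrillar matrix goes with actin fibres, with the mechanosensitive factors SRF with its partner MRTF and YAP with TAZ, and with cell division, and a soft laminin-rich matrix goes with quiescence.

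In these libraries 7.21 to 9.37 gigabases were aligned, and for values from 20 FPKM the median width of the Cufflinks interval on each side was 3.70% to 3.99%. Replicate b of BME day 5 stood apart from a and c. Its median absolute log2 difference was 0.289 to replicate a and 0.274 to c, against 0.090 between a and c, and 0.049 to 0.082 among the BME plus COL1 libraries. Mki67, a marker of cycling cells, had 18.5, 4.88 and 14.6 FPKM in a, b and c, and the nuclear RNA Neat1 had 54.1, 225 and 60.9. Other libraries were unusual in single measures. Genes shorter than 300 nt held 7.25% of the summed FPKM in BME day 5 replicate a and 0.44% to 2.12% in the other libraries. The ribosomal RNA gene Rn45s had 3105 FPKM in BME plus COL1 replicate c and 102 to 201 in the others. Values without BME day 5 replicate b are given where they differ by more than 1.5 times. The simple epithelial keratin Krt8 was at 395 to 582 FPKM on BME and at 1291 to 1324 on BME plus COL1, and the mesenchymal filament Vim at 616 to 866 and 1233 to 1293, whereas the epithelial adhesion molecule Epcam did not pass 0.845 in any day 5 library. Of 22 milk protein and alveolar genes, 16 were below 1 FPKM in every day 5 library, and the milk genes Csn2, Wap and Lalba were listed at 0 throughout.

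Of the 10456 genes, 3153 were higher on BME, 4771 were lower and 2532 were not called (limma on log2 of FPKM plus 0.1, adjusted p under 0.05). The background for every class is therefore wide, as 30.2% of tested genes were called higher and 45.6% lower, and the 3 libraries of one group did not overlap with those of the other in 80.3% of genes. A change of at least 2-fold was called for 1132 genes upwards (10.8%) and 1649 downwards (15.8%). Changes of at least 16-fold were called for 52 genes upwards and 18 downwards. A mean of at least 1 FPKM on BME but below 1 on BME plus COL1 was found for 416 genes, and the reverse for 176. The median log2 change of all genes was -0.19, and it depends on the scaling. As TPM it was 0.16, with 4823 genes higher and 3338 lower, so that 59.1% of called genes were higher against 39.8% as FPKM. After median-ratio scaling 50.0% were higher and after quantile normalization 47.2%. Without BME day 5 replicate b the median was -0.11. Where a class median is given, it is to be read against the median of all genes, not against 0. The calls of single genes are tests against 0. FPKM are relative to the mapped fragments of a library and do not add up to a fixed sum, whereas TPM do. Summed FPKM were 287611 to 364146 in the BME day 5 libraries and 417944 to 423289 with COL1. In bulk RNA, fewer cells that express a gene and less RNA per cell cannot be told apart.

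**Figure D1:**
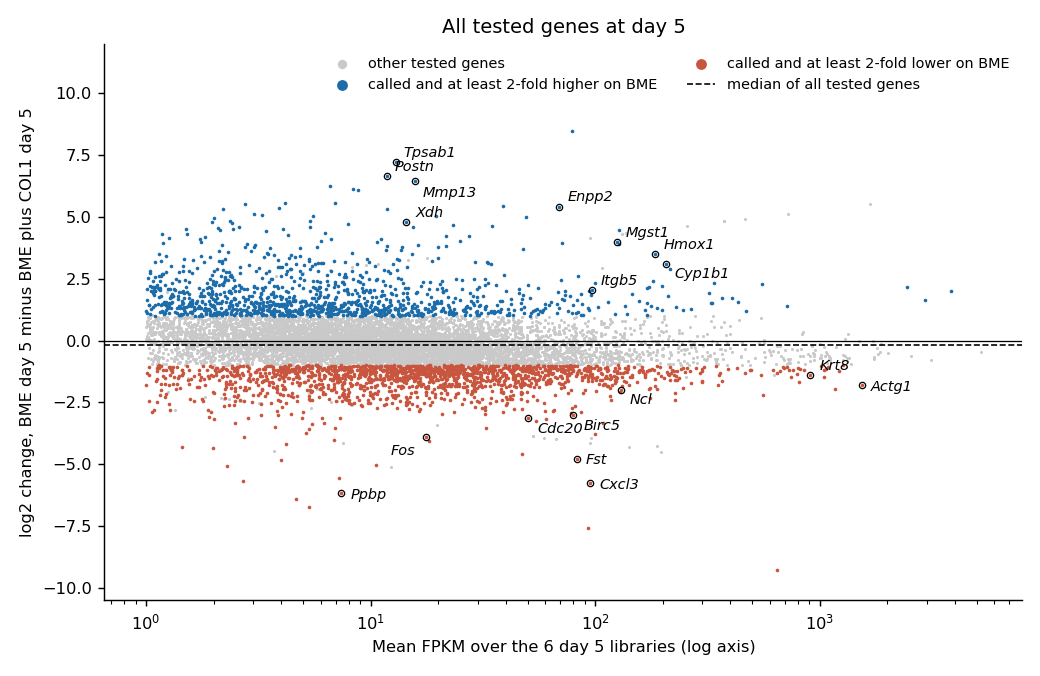
Log2 change of each of the 10456 tested genes (BME day 5 minus BME plus COL1 day 5, vertical axis) against its mean FPKM over the 6 day 5 libraries (horizontal log axis), with 18 genes of the text circled. Blue points are the 1132 genes called and at least 2-fold higher on BME, red points the 1649 at least 2-fold lower, and the dashed line is the median of all tested genes at -0.19.

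**Figure D2:**
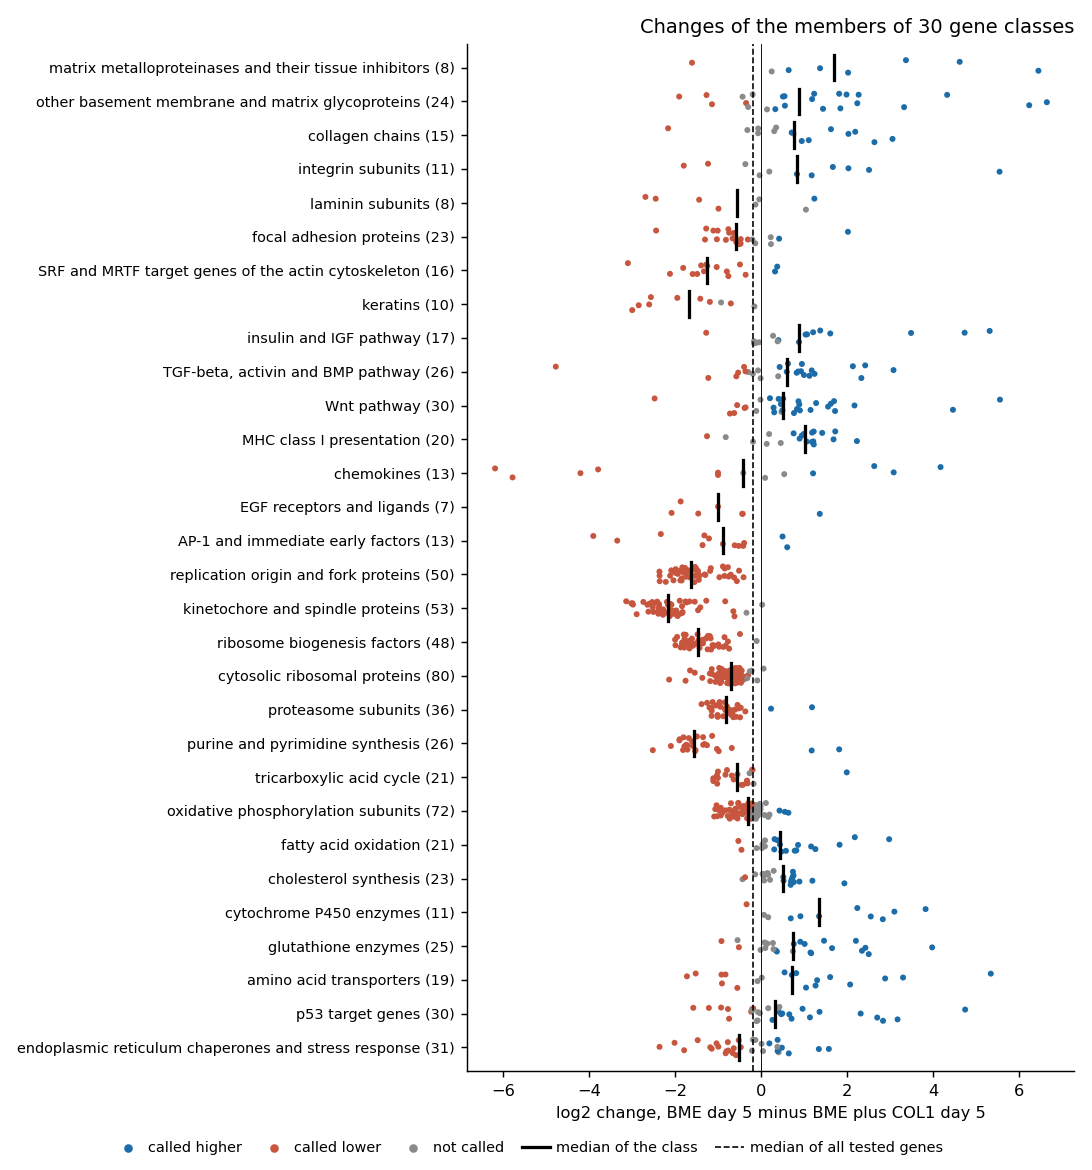
Log2 change (BME day 5 minus BME plus COL1 day 5) of the tested members of 30 gene classes, with the number tested in brackets. Points are genes, coloured by their call, thick bars are class medians and the dashed line is the median of all genes at -0.19. The class medians reach from -2.16 in the kinetochore and spindle proteins to 1.70 in the metalloproteinases and their inhibitors.

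Matrix genes showed large differences between the 2 groups. Of 8 tested matrix metalloproteinases and their inhibitors, 6 were higher and 1 lower, with a median log2 change of 1.70. The collagenase Mmp13 (chromosome 9, 7272514 to 7283333 on mm9) had 36.7, 11.9 and 45.5 FPKM in the BME cultures and 0.171, 0.268 and 0.204 in the BME plus COL1 cultures. Its log2 change was 6.45 (standard error 0.46, adjusted p = 2.25e-06, limma), and 7.04 without replicate b, the lowest of the BME cultures. Mmp11, or stromelysin 3, had 44.8, 81.3 and 73.8 against 2.53, 2.47 and 2.59 FPKM, a log2 change of 4.62 (standard error 0.21, adjusted p = 2.02e-07, limma). The groups were far apart in both genes. The inhibitor Timp1 went the opposite way, with 133, 83.2 and 124 FPKM on BME and 342, 333 and 341 on BME plus COL1 (log2 change -1.60, standard error 0.17, adjusted p = 2.00e-05, limma). None of the 6 tested ADAMTS proteases, which cut proteoglycans and procollagens, was higher. Adamts1 (-3.55), Adamts14 (-2.56) and Adamts5 (-2.16) were lower, and the values of Adamts12 (0.21, but 0.55 and called as TPM), Adamts4 (0.03) and Adamts9 (0.03, but -0.33 without replicate b) were not called.

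The promoter of Mmp13 is shown because AP-1 is a known regulator of collagenases and the AP-1 genes are described below. The 160 bases before its start site (RefSeq, GRCm38.p6, chr9:7272354-7272513, plus strand) read as follows, with an AP-1 site (TGACTCA, 35 bases before the start), a RUNX site (ACCACA, 118 before) and a TATA box (16 before) in capitals.
Mmp13: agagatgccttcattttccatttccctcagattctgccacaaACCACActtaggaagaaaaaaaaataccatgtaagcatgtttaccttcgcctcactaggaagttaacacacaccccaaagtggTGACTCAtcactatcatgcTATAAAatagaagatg
Among the promoters of the table (250 bases before to 50 after the start, either strand), TGANTCA was found in 7.93% of all, in 4.66% of those of tested genes, in 6.93% of those of genes at least 2-fold higher on BME and in 4.47% of those at least 2-fold lower. The promoter of Postn, a matrix gene described below, was searched for the AP-1, RUNX and TATA motifs. It held none of them in the 250 bases before its start.

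Of 24 tested matrix glycoproteins, 16 were higher and 4 lower on BME, with a median log2 change of 0.87. Postn, a matricellular protein that binds collagen, was at 20.3, 24.2 and 26.2 FPKM on BME and at 0.166, 0.121 and 0.121 on BME plus COL1 (log2 change 6.64, standard error 0.15, adjusted p = 2.09e-08, limma). Smoc2, a calcium-binding matrix protein, had 9.84, 20.7 and 8.98 against 0.104, 0.0432 and 0.0498 FPKM (6.23, standard error 0.34, adjusted p = 5.08e-07, limma). Both genes were close to absent with COL1. Lower on BME were Tnc, the tenascin of remodelling tissue (3.14 ± 0.84 against 11.8 ± 0.61 FPKM, SD, n = 3 cultures), and Npnt, a ligand of integrin α8β1 (5.47 ± 0.28 against 13.3 ± 0.14). Of 15 collagen chains 8 were higher, 1 was lower and 6 were not called, with a median of 0.76. The fibril-associated chain Col12a1 had 74.2, 61.3 and 68.3 FPKM on BME and 11, 11.6 and 9.87 with COL1 (2.64, standard error 0.09, adjusted p = 6.87e-08, limma). Col6a3 of the microfibrillar collagen VI changed by 3.06 (3.74 without replicate b), and Col8a1, a short-chain collagen, was lower (-2.16). Col1a1, the main chain of type I collagen itself, was low in both groups, at 3.53, 1.69 and 4.32 FPKM on BME and 1.46 to 1.54 with COL1 (0.95, standard error 0.31, adjusted p = 0.0198, limma), and it was not called without BME day 5 replicate a or c or BME plus COL1 replicate b or c.

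Of 15 enzymes that modify or crosslink collagen, 6 were higher and 4 lower, and the sign of their median (-0.05) turned as TPM (0.30), after median-ratio and quantile scaling and without replicate b. The prolyl hydroxylase subunit P4ha3 (3.15) and the lysyl hydroxylase Plod1 (1.24) were higher, and Pcolce, which speeds the cleavage of procollagen, was lower (-1.24). Proteoglycan cores were higher in 5 of 8 (all 8 as TPM) and lower in none, with a median of 0.74. The syndecans Sdc3 (106, 57.7 and 122 against 2.72, 2.82 and 2.75 FPKM) and Sdc1 (log2 change 1.03) were among them. Sdc3 changed by 4.99 (standard error 0.27, adjusted p = 4.98e-07, limma).

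Receptors for matrix changed in both directions. Of 11 tested integrin subunits, 6 were higher, 2 were lower and 3 were not called, among them Itgb1, the common beta subunit (291 to 345 FPKM on BME and 329 to 339 with COL1), which is named here after its values were seen. The higher ones included Itgb3 and Itgb5, which pair with αv to bind vitronectin and fibronectin. Itgb3 had 46.8, 28.3 and 48.8 against 7.02, 7.21 and 6.66 FPKM (log2 change 2.51, standard error 0.20, adjusted p = 3.70e-06, limma). Itgb5 had 119, 212 and 138 against 37.7, 36.2 and 37.2 FPKM (2.03, standard error 0.19, adjusted p = 9.50e-06, limma). Itga3 and Itga6, which encode laminin receptor subunits, were the 2 that were lower. Itga3 had 26.6, 18.8 and 22.3 FPKM on BME against 78.4, 79.3 and 76.0 (-1.80, standard error 0.11, adjusted p = 1.16e-06, limma). Itga6 had 35.9, 22 and 28.5 against 68.3, 70.1 and 61.4 (-1.23, standard error 0.15, adjusted p = 6.90e-05, limma). No library of one group overlapped with the other in these 4 genes. Itgb4, the partner of Itga6 in hemidesmosomes, was higher on BME (1.18). The collagen receptor kinase Ddr1 had 19.3, 18.5 and 18.8 FPKM on BME and 7.80, 8.02 and 7.18 with COL1 (1.29, standard error 0.07, adjusted p = 4.08e-07, limma). Its relative Ddr2 differed by 0.30 (adjusted p = 0.0405, limma), a call that was lost when any one of 8 of the 9 libraries was left out.

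Of 8 laminin subunits, 4 were lower on BME, 1 was higher and 3 were not called, with a median of -0.56. As TPM 4 were lower and 4 higher, with a median of -0.22. Lamc1, the gamma chain of many laminins, had 30.3, 19.3 and 26.2 FPKM on BME and 49.7, 53.1 and 45.7 with COL1 (log2 change -0.99, standard error 0.15, adjusted p = 0.000238, limma). Lamb2 was the one that was higher, with 28.7, 35.1 and 31.9 FPKM against 13.7, 13.7 and 12.9 (1.24, standard error 0.08, adjusted p = 1.69e-06, limma). The groups did not overlap in either gene. The laminin-binding protein gene Rpsa, which also encodes a protein of the small ribosomal subunit, was lower (-1.19), and the dystroglycan gene Dag1 was higher (0.55).

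**Figure D3:**
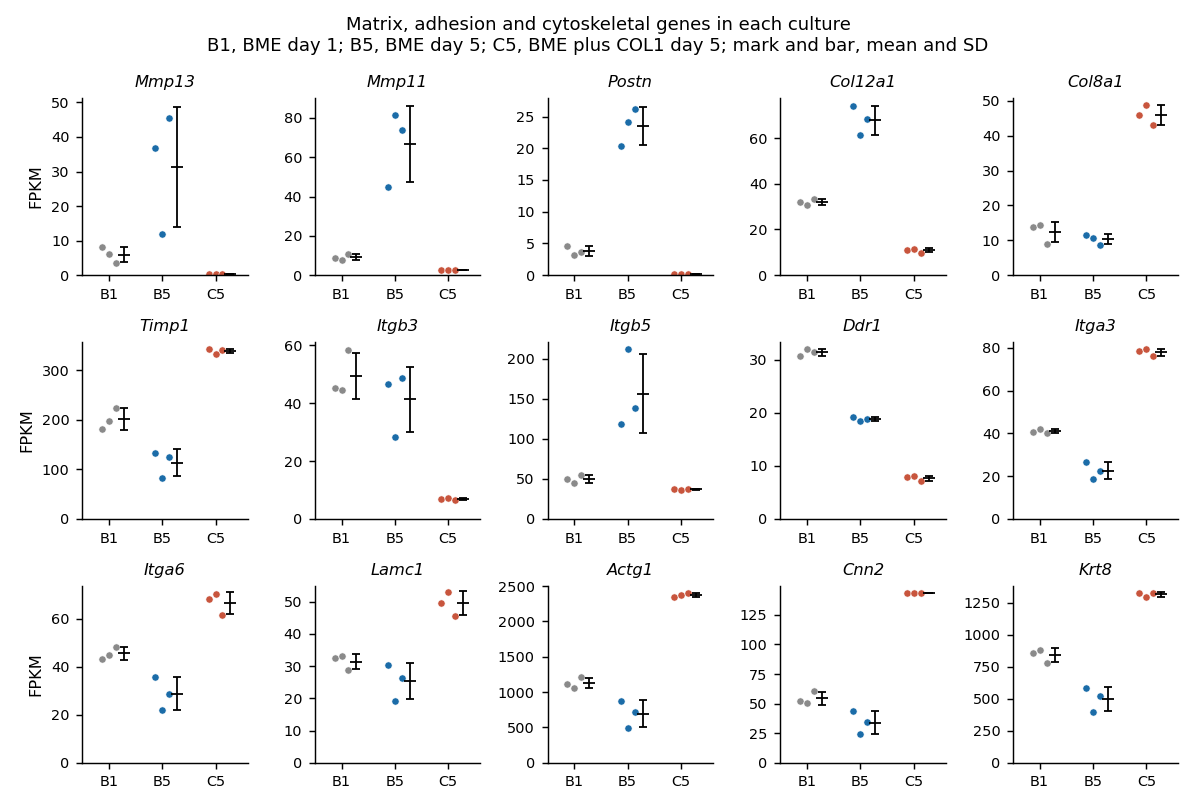
FPKM of 15 matrix, adhesion and cytoskeletal genes per culture, where B1 is BME after 1 day, B5 is BME after 5 days and C5 is BME with COL1 after 5 days, and each axis starts at 0. Points are the replicates a, b and c from left to right, and the mark and bar give the mean and SD of 3 cultures. Itgb3 lies between 28.3 and 48.8 on BME at day 5 and between 6.66 and 7.21 with COL1, and Itga3 between 18.8 and 26.6 and between 76.0 and 79.3.

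The contractile cytoskeleton was lower on BME. Of 16 SRF and MRTF targets, 14 were lower, 10 of them at least 2-fold, and 2 were higher, with a median log2 change of -1.26 (-0.92 as TPM). The cytoplasmic actin Actg1 had 880, 488 and 722 FPKM on BME and 2348, 2369 and 2405 with COL1 (-1.81, standard error 0.18, adjusted p = 1.76e-05, limma). The calponin Cnn2 had 43.5, 24 and 34.2 against 143, 143 and 143 (-2.12, standard error 0.18, adjusted p = 6.47e-06, limma). In both genes replicate b was the lowest, and every BME culture was below every culture with COL1. Mkl1, which encodes MRTF-A, was slightly higher (0.38). Of 23 focal adhesion proteins 17 were lower and 2 higher (12 and 5 as TPM), with the crosslinker Flnc (-2.44) and the zyxin gene Zyx (-1.30) among the former and the tensin Tns3 (0.42) among the latter. Of 17 YAP and TAZ targets 12 were lower and 2 higher (7 and 3 as TPM). Ankrd1 led them with 24.9, 9.74 and 17.4 FPKM on BME against 115, 113 and 113 (-2.81, standard error 0.27, adjusted p = 1.42e-05, limma), and Amotl2, an inhibitor of YAP that is also its target, followed (-1.51).

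Epithelial filaments and junctions were split. Of 10 keratins 8 were lower, 7 of them at least 2-fold, none was higher, and the median was -1.68. Krt20, found in gut and bladder epithelium, had 22.3, 8.02 and 16.5 FPKM on BME and 104, 103 and 103 with COL1 (-2.84, standard error 0.29, adjusted p = 1.89e-05, limma), and Krt13 of stratified epithelium changed by -2.60. Krt14, a basal keratin, had 16.7, 9.26 and 22.8 against 16.2, 16.0 and 18.7 FPKM and was not called. Desmosomal genes included Dsp (58.4, 53.9 and 60.4 against 24.9, 24.8 and 22.4 FPKM, log2 change 1.26) and Perp (2.32), both higher on BME. Pkp4 (-1.34) and the cadherin Cdh15 (-1.61) were lower. Of 13 cadherin and desmosomal genes 4 were higher and 6 lower, close to the shares of all tested genes (30.2% and 45.6%). Among tight junction genes, 6 of 8 were lower, with Cldn12 at -1.58. Of 8 ephrins and Eph receptors 6 were higher, such as Efna1 (1.40) and Efnb1 (1.28), and Efnb2 (-1.03) and Epha2 (-0.89) were lower. The exchange factor Arhgef19, which activates RhoA, was at 10.8, 10.4 and 13.2 against 0.615, 0.581 and 0.604 FPKM (4.04, standard error 0.17, adjusted p = 1.74e-07, limma), and among tetraspanins Tspan7 was higher (3.70) and Tspan9 lower (-2.27).

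Growth factor genes changed in both directions, and not every family moved as one. All 3 tested genes of the FGF family were higher on BME, where Fgfr1 had 127, 158 and 122 FPKM against 37.5, 37.0 and 35.2 (log2 change 1.88, standard error 0.12, adjusted p = 9.87e-07, limma), and Fgf2 (2.80) and Fgfrl1 (1.14) rose with it. Of 7 genes of the EGF family, 6 were lower on BME and 1 was higher (3 and 1 as TPM). The neuregulin Nrg1 had 20.1, 11.1 and 14.1 FPKM on BME and 60.8, 65.6 and 60.5 with COL1 (-2.08, standard error 0.19, adjusted p = 1.02e-05, limma), and the ligand Areg was at -1.87. The receptor Egfr differed by -0.43, and by -0.08 as TPM (adjusted p = 0.413, limma). In the insulin and IGF pathway 10 of 17 genes were higher, 8 of them at least 2-fold, and 1 lower. Pik3ip1, an inhibitor of phosphatidylinositol 3-kinase, had 9.14, 23.4 and 13.8 FPKM on BME and 0.516, 0.352 and 0.475 with COL1 (4.73, standard error 0.28, adjusted p = 8.49e-07, limma). Foxo1, the transcription factor that insulin signalling keeps out of the nucleus, had 12.2, 13.4 and 14 against 4.27, 4.54 and 3.96 FPKM (1.61, standard error 0.08, adjusted p = 2.79e-07, limma). The binding protein Igfbp4 was lower (-1.28).

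Of 26 genes of TGF-β, activin and BMP signalling 15 were higher and 6 lower, with a median of 0.61 (17 and 3 as TPM). The ligand Tgfb3 had 45.3, 81.2 and 58.2 FPKM on BME and 7.22, 7.11 and 6.64 with COL1 (log2 change 3.08, standard error 0.20, adjusted p = 1.35e-06, limma), and the inhibitory Smad6 was higher too (2.42). Follistatin (Fst), the secreted antagonist of activin, had 11.3, 3.45 and 4.78 on BME against 159, 164 and 155 FPKM (-4.77, standard error 0.36, adjusted p = 3.10e-06, limma), and Smad3 was lower (-1.23). The Wnt pathway had 21 of 30 genes higher and 6 lower, with a median of 0.51. Lgr6, a receptor for R-spondins, was at 49.5, 53.2 and 46.7 FPKM on BME and at 11.2, 11.4 and 10.3 with COL1 (2.17, standard error 0.08, adjusted p = 8.88e-08, limma), Wls, which carries Wnt proteins to the surface, was higher (1.62), and the destruction complex genes Gsk3a (-0.72) and Axin1 (-0.56) were lower. Of 20 genes of the Notch pathway 11 were higher and 4 lower (13 and 2 as TPM). The ligand Dll4 had 4.83, 0.705 and 2.08 against 33.5, 34.6 and 33.6 FPKM (-4.05, standard error 0.51, adjusted p = 6.93e-05, limma), or -3.37 without replicate b and -4.68 without replicate a. The repressors Hes6 (1.93) and Hey2 (-1.61) differed in opposite directions. In the vascular families Vegfa had 36.9, 27.8 and 35.8 against 8.60, 8.55 and 8.35 FPKM (1.96, standard error 0.11, adjusted p = 6.03e-07, limma), the receptor Pdgfra was higher (2.85) and the ligand Pdgfd lower (-2.26).

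Chemokines differed in both directions. Of 13 tested, 6 were lower and 4 higher, close to the shares of all tested genes (45.6% and 30.2%). All of these changed at least 2-fold, which 15.8% and 10.8% of all tested genes did. The neutrophil attractants Cxcl5, Ppbp and Cxcl3 were lower on BME and lie next to each other among tested genes on chromosome 5 (91188325 to 91217116, mm9). Cxcl5 had 20.7, 8.0 and 14.3 FPKM on BME and 185, 188 and 184 with COL1 (log2 change -3.79, standard error 0.29, adjusted p = 3.63e-06, limma). Cxcl3 had 6.37, 1.29 and 4.26 against 190, 185 and 184 (-5.78, standard error 0.44, adjusted p = 3.49e-06, limma), or -5.13 without replicate b. Ppbp had 0.129, 0.119 and 0.0680 against 15.1, 14.7 and 14.3 (-6.18, standard error 0.19, adjusted p = 5.48e-08, limma). All 3 were thus low in each BME culture and nearly constant across those with COL1. The monocyte attractants Ccl2 (9.10, 2.82 and 11.2 against 0.621, 0.683 and 0.783 FPKM) and Ccl7 (4.78, 0.259 and 5.85 against 0.0349, 0.0314 and 0) were higher, and are neighbours with Myo1d in a run on chromosome 11. Both were lowest in replicate b, and their changes of 3.08 and 4.17 became 3.69 and 5.48 without it, and that of Ccl7 was 3.45 without replicate c. Cxcl16 (2.63) and Cx3cl1 (1.21), which are made as membrane proteins, were also higher. Among cytokines, Csf3 (-3.53) and Il1a (-2.0) were lower.

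Genes of antigen presentation were higher. Of 20 genes of MHC class I presentation 14 were higher, 10 of them at least 2-fold, and 1 was lower, with a median of 1.03. The light chain B2m had 648, 513 and 718 FPKM on BME and 191, 188 and 184 with COL1 (log2 change 1.72, standard error 0.14, adjusted p = 4.99e-06, limma). The loading factor Tapbp was at 1.69, whereas Psmb10, a subunit of the immunoproteasome, was lower (-1.26). The class I heavy chain genes are close paralogs, so that reads may be split between them. Of 27 interferon response genes 10 were higher and 8 lower (13 and 5 as TPM), counts that moved by more than 1.5 times without BME day 5 replicate c or BME plus COL1 replicate b. Among 6 complement genes 4 were higher and none lower, and the central component C3 had 5.82, 12.7 and 6.38 FPKM on BME and 0.287, 0.344 and 0.297 with COL1 (4.27, standard error 0.28, adjusted p = 1.44e-06, limma).

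Classes of transcription factors did not all change alike, and some were close to the background. Of 13 AP-1 and immediate early factors 11 were lower and 2 higher, with a median of -0.89 (7 and 2 as TPM, with -0.54). Fos had 1.41, 3.07 and 2.17 FPKM on BME and 34.9, 36.8 and 27.8 with COL1 (log2 change -3.90, standard error 0.28, adjusted p = 2.33e-06, limma), Fosb was at -3.34, and Fosl2 (0.61) and Junb (0.50) were higher. Every BME culture was below every culture with COL1 in Fos and Fosb, and neither gene was lowest in replicate b. In its 160 bases before the start site (RefSeq, GRCm38.p6, chr12:85473730-85473889, plus strand) the Fos promoter holds a TATA box (TATAAA, 33 bases before the start, in capitals), a motif found in 6.49% of the promoters of tested genes and 14.2% of all promoters of the table, and it is shown as the promoter of the AP-1 gene with the largest change.
Fos: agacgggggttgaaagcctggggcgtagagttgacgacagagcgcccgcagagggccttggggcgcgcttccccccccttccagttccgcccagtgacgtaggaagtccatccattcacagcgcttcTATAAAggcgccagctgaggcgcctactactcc
Of 10 genes of the MYC and MAX network 3 were higher and 5 lower (4 and 3 as TPM). As FPKM this is close to the shares of all tested genes (30.2% and 45.6%). Mycl1 had 9.92, 12.7 and 13.3 against 0.436, 0.518 and 0.501 FPKM (4.36, standard error 0.16, adjusted p = 7.75e-08, limma), and Mxd4, a repressor that competes with MYC for MAX, had 20.8, 19.7 and 22.3 against 2.74, 2.97 and 3.0 (2.81, standard error 0.08, adjusted p = 3.88e-08, limma). Myc itself was lower, with 39.7, 17.6 and 34.1 against 67.4, 69.4 and 62.8 FPKM (-1.21, standard error 0.25, adjusted p = 0.00149, limma).

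Of 22 nuclear receptors 10 were higher and 6 lower (16 and 4 as TPM). The oxysterol receptor Nr1h3 (LXRα) had 22.6, 20.4 and 24.8 FPKM on BME and 3.97, 3.95 and 3.66 with COL1 (log2 change 2.51, standard error 0.23, adjusted p = 9.53e-06, limma), Pparg was at 1.28, and Nr2f2 (-1.22) and Ppard (-0.83) were lower. Stat5a, a mediator of prolactin signals, had 11, 12.4 and 11.9 against 1.56, 1.57 and 1.62 FPKM (2.82, standard error 0.12, adjusted p = 1.60e-07, limma), while its paralog Stat5b differed by 0.03 and was not called (0.37 and called as TPM). Clock genes were higher in 10 of 15 and lower in 3 (11 and 1 as TPM), with a median of 0.77, among them Tef (1.73) and Bhlhe40 (1.43). The mesenchymal factor Prrx1 was higher (120, 97.2 and 128 against 31.8, 32.6 and 30.5 FPKM, log2 change 1.85). Of the 4 tested Sox genes, Sox4 was higher (1.16) and Sox13 (-1.48), Sox2 (-0.82) and Sox9 (-0.64) were lower. The large family of 243 tested Zfp zinc finger genes split into 86 higher and 63 lower (151 and 27 as TPM), and only 14 and 7 of them changed at least 2-fold.

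Genes of replication and mitosis were lower on BME. All 50 proteins of the replication origin and fork were lower, 39 of them at least 2-fold, with a median log2 change of -1.64. Of 53 kinetochore and spindle proteins 51 were lower, 48 of them at least 2-fold, with a median of -2.16, and all 7 tested cyclins were lower (median -1.74). Without replicate b the medians were -1.25, -1.67 and -1.33, with 50, 51 and 7 genes still lower. The B-type cyclin Ccnb2 had 11.5, 3.54 and 10.6 FPKM on BME and 49.0, 49.0 and 51.3 with COL1 (-2.70, standard error 0.37, adjusted p = 0.000120, limma). Birc5, the survivin of the chromosomal passenger complex, had 29.0, 7.70 and 22.7 against 141, 137 and 142 (-3.02, standard error 0.39, adjusted p = 7.96e-05, limma), and the helicase subunit Mcm5 had 21.3, 7.30 and 16.3 against 68.9, 70.8 and 72.2 (-2.36, standard error 0.32, adjusted p = 0.000108, limma). Homologous recombination and Fanconi genes were lower in 25 of 29, and nucleotide synthesis in 24 of 26 (median -1.56), with the salvage kinase Tk1 at -2.52 (-1.91 without replicate b). The CDK inhibitors Cdkn3 (-2.54) and Cdkn2c (-1.34) were lower as well, and Cdkn2b (1.52) and Cdkn1a (1.36) were higher.

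The promoters of Cdc20 and Ccnb2 are shown because both genes are mitotic and their windows hold the motifs known from cell cycle promoters, the CCAAT box and the cell cycle homology region TTTGAA, in capitals (160 bases before the start site, RefSeq, GRCm38.p6, minus strand, chr4:118437344-118437503 and chr9:70421555-70421714).
Cdc20: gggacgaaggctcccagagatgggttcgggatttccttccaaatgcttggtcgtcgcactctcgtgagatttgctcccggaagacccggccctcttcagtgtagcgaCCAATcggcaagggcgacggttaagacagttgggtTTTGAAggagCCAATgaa
Ccnb2: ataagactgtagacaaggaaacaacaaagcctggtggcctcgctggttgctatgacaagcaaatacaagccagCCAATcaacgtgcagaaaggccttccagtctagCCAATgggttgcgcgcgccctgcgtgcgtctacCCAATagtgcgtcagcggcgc
Ccnb2 holds 3 CCAAT boxes, at 87, 54 and 21 bases before the start, and its TTTGAA, at 167 before, lies outside the stretch shown. In the kinetochore and spindle class CCAAT was found in 29 of 45 promoters (64.4%) and TTTGAA in 27 (60.0%), against 39.4% and 11.1% of the promoters of tested genes and 37.9% and 18.1% of all promoters of the table. In the replication class the E2F motifs TTTCCCGC or TTTGGCGC were found in 14 of 40 promoters (35.0%), against 3.51% of those of tested genes and 1.63% of all. A match of letters is a description and does not show that a factor binds there.

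Chromatin genes followed in part. Of 21 subunits of cohesin and condensin 17 were lower and 1, Mau2, was higher (0.28; as TPM 16 were lower and 4 higher), with Ncapg at -2.49. Of 17 genes of Polycomb complex 2 and DNA methylation 11 were lower and 4 higher. Uhrf1, which guides maintenance methylation, had 12.6, 3.69 and 10.5 FPKM on BME against 35.1, 35.7 and 33.7 (-2.13, standard error 0.37, adjusted p = 0.000534, limma), and Phf1 of Polycomb complex 2 was higher (0.99). Histone deacetylases and sirtuins were higher in 10 of 17, with the class IIa member Hdac5 at 1.87 and Hdac7 of the same class at -1.24. In the SWI/SNF complex the ATPase Smarca2 was higher (10.4, 13.3 and 12.6 against 3.93, 4.05 and 3.90 FPKM, log2 change 1.58), while 13 of 20 subunits were lower (6 as TPM). Lmnb1, the B-type lamin of the nuclear envelope, had 8.62, 2.32 and 7.56 against 41.4, 40.2 and 40.9 FPKM (-2.91, standard error 0.39, adjusted p = 0.000106, limma), or -2.32 without replicate b.

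The genes that make and fold proteins were lower. Of 48 ribosome biogenesis factors 47 were lower, 39 of them at least 2-fold, with a median of -1.47, and the core protein of box C/D particles Nop58 had 43.9, 23.9 and 42.9 FPKM on BME against 147, 141 and 140 (log2 change -2.0, standard error 0.20, adjusted p = 1.57e-05, limma). Cytosolic ribosomal proteins were lower in 74 of 80, but only 11 at least 2-fold (median -0.71, and 56 lower and 2 higher as TPM). Mitochondrial ribosomal proteins were lower in 73 of 76 (median -0.85). Lower were also 26 of 27 nuclear pore proteins, 26 of 28 splicing factors, 34 of 36 proteasome subunits, all 12 subunits of RNA polymerase II (8 as TPM) and 28 of 37 aminoacyl-tRNA synthetases. Without replicate b, 2 synthetases were higher and 27 lower, and as TPM 6 and 19. In this class the FPKM summed over its members were 798 to 1103 on BME and 1576 to 2322 with COL1. The folding machine TRiC with prefoldin had 12 of 13 genes lower, with the subunit Cct6a at -1.60, and the chaperones Hspd1 (161, 111 and 162 against 462, 455 and 447 FPKM) and Hsp90aa1 (162, 125 and 150 against 461, 456 and 433) were at -1.67 and -1.63. Members that ran against the rest of their class included the polymerase III repressor Maf1 (0.68), the elongation factor kinase Eef2k (0.41), the cochaperone Bag3 (0.75) and Pfdn5 (0.71). Vesicle and ubiquitin genes were less uniform, with 16 of 40 Rab GTPases higher and 9 lower (29 and 3 as TPM) and 20 of 49 F-box genes higher and 12 lower (31 and 4 as TPM).

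Some genes with large changes share exons with another gene, and how reads were assigned between the 2 was not tested. Gm15772 had 116, 159 and 196 FPKM on BME and 0.0207, 4.43 and 0.0444 with COL1, whereas Rpl26, a ribosomal protein gene with which it shares an exon on the same strand of chromosome 11, had 113, 58.8 and 87.7 against 361, 354 and 390. Their sum was 218 to 284 on BME and 359 to 390 with COL1. Rpl34 (-1.75) overlaps Rpl34-ps1 on the same strand, whose mean was 1087 FPKM on BME and 1278 with COL1. Eno1 overlaps Gm5506, whose mean was 125 and 310, so these partners did not go the opposite way. The folds of these genes alone are therefore uncertain. Ube2e2, an E2 ubiquitin-conjugating enzyme, was listed at 0 in all 6 BME libraries and at 10.1 to 11.4 FPKM with COL1, and the small nucleolar RNAs Snord47 and Snord96a were listed at 0 in all BME libraries and in 1 of the 3 with COL1, so that no fold is given for them.

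Genes of the tricarboxylic acid cycle were mostly lower and those of fatty acid oxidation mostly higher. Of 21 genes of the tricarboxylic acid cycle 18 were lower (10 as TPM), and 1, the cytosolic NADP-dependent isocitrate dehydrogenase Idh1, was higher, with 102, 139 and 112 FPKM on BME and 29.5, 30.5 and 27.9 with COL1 (log2 change 1.99, standard error 0.12, adjusted p = 6.90e-07, limma). Oxidative phosphorylation subunits were lower in 42 of 72 and higher in 3, but their median (-0.29) turned to 0.05 as TPM, with 24 lower and 27 higher, and 6 were higher without replicate b. Glycolytic enzymes were close to the background, with 10 of 21 lower and 6 higher (9 and 10 as TPM) and a median of -0.20 (0.15 as TPM), and Gapdh (-1.21) and Ldha (-1.14) were lower. One-carbon enzymes were lower in 10 of 14, with Shmt1 at -2.30 and the serine synthesis enzyme Psat1 at -2.04. Fatty acid oxidation was higher in 14 of 21 and lower in 2. Cpt1a, which admits acyl groups to mitochondria, had 16.1, 20.4 and 17.5 against 5.04, 4.96 and 4.92 FPKM (1.83, standard error 0.12, adjusted p = 1.54e-06, limma). The lipid droplet coat Plin4 was at 38.8, 53.5 and 42.8 against 1.68, 1.78 and 1.49 FPKM (4.68, standard error 0.13, adjusted p = 3.88e-08, limma), and the fatty acid synthase Fasn was lower (-1.05). Of 23 genes of cholesterol synthesis 12 were higher and 1, Ebp, was lower (-0.37, and -0.03 as TPM). Fdft1 (1.19) of this pathway overlaps Ctsb on the opposite strand, and Ctsb was at 270 FPKM on BME and 108 with COL1.

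Detoxification and redox genes were higher. Of 11 cytochrome P450 genes 8 were higher and 1 lower, with a median of 1.35. Cyp1b1, which oxidises oestrogens and polycyclic hydrocarbons, had 292, 480 and 339 FPKM on BME and 43.0, 43.2 and 40.3 with COL1 (log2 change 3.10, standard error 0.18, adjusted p = 8.15e-07, limma). Glutathione enzymes were higher in 14 of 25 and lower in 2 (22 and 2 as TPM). The microsomal transferase Mgst1 had 199, 279 and 228 against 16.1, 13.8 and 14.3 FPKM (3.98, standard error 0.19, adjusted p = 2.77e-07, limma), and the glutathione reductase Gsr was lower (-0.52, but -0.06 and not called after quantile normalization). In the NRF2 pathway, the response to oxidants, 10 of 18 were higher and 3 lower (14 and 1 as TPM). Hmox1, which degrades heme, had 331, 363 and 325 against 30.1, 29.2 and 30.8 FPKM (3.49, standard error 0.17, adjusted p = 2.77e-07, limma). The cystine importer Slc7a11 had 26.8, 22.4 and 22.4 against 2.42, 2.42 and 2.13 (3.30, standard error 0.11, adjusted p = 6.19e-08, limma). Txnrd1 (-0.38, adjusted p = 0.0459, limma), also of this pathway, was 0.07 after quantile normalization and lost its call when BME plus COL1 libraries or BME day 1 libraries were left out one at a time. All of Cyp1b1, Mgst1, Hmox1 and Slc7a11 were separated by more than 5-fold between the group means.

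Transporters differed in both directions. Of 164 solute carriers 74 were higher and 53 lower, and 11 of 19 amino acid transporters were higher. Slc43a2 had 19.0, 28.2 and 22.3 FPKM on BME and 0.450, 0.547 and 0.410 with COL1 (log2 change 5.34, standard error 0.26, adjusted p = 2.93e-07, limma), whereas Slc7a5 (34.5, 13.8 and 28.1 against 79.6, 80.3 and 75.9) and Slc1a5 (-1.52), carriers of large neutral amino acids and glutamine, were lower. The iron exporter Slc40a1 had 12.7, 24.5 and 15.1 against 0.113, 0.173 and 0.159 FPKM (6.10, standard error 0.22, adjusted p = 6.82e-08, limma), and the transferrin receptor Tfrc, the route of iron entry, had 47.6, 25.4 and 40.7 against 114, 117 and 109 (-1.63, standard error 0.19, adjusted p = 4.40e-05, limma). The nucleoside carrier Slc29a2 was lower (-2.39). ABC transporters had 13 of 23 higher and 7 lower, such as Abca2 (1.56) and Abcb10 (-1.28).

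**Figure D4:**
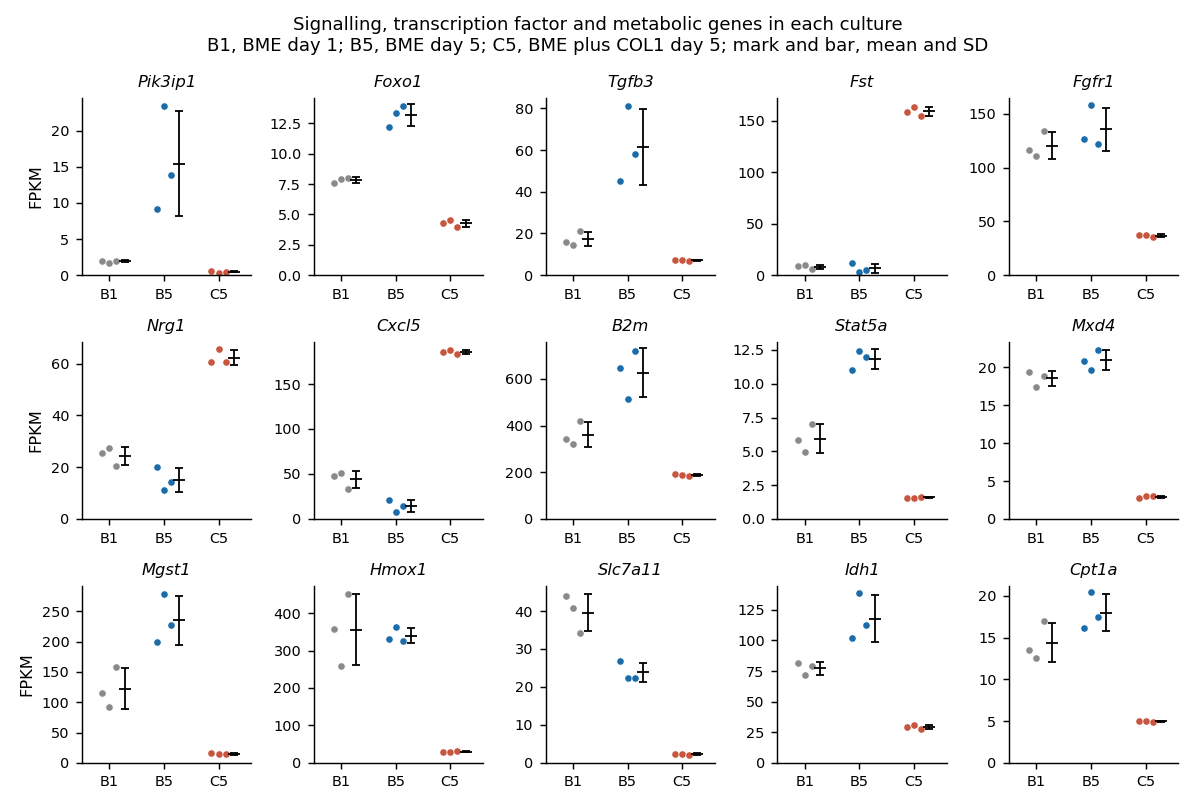
FPKM of 15 signalling, transcription factor and metabolic genes per culture, where B1 is BME after 1 day, B5 is BME after 5 days and C5 is BME with COL1 after 5 days, and each axis starts at 0. Points are the replicates a, b and c from left to right, and the mark and bar give the mean and SD of 3 cultures. Hmox1 lies between 325 and 363 on BME at day 5 and between 29.2 and 30.8 with COL1, and Fst between 3.45 and 11.3 and between 155 and 164.

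Stress genes were mixed. Of 31 chaperones and sensors of the endoplasmic reticulum 17 were lower and 7 higher (16 and 11 as TPM), with Sdf2l1 (17.3, 11.1 and 18.0 against 78.2, 75.6 and 80.5 FPKM, log2 change -2.36) and Creld2 (-2.01) lower, and the cochaperone Dnajb9 (1.58) and the sensor kinase Eif2ak3 (1.34) higher. Of 30 p53 targets 14 were higher and 7 lower. Gadd45a had 21.1, 21.9 and 26.2 against 3.61, 3.03 and 2.82 FPKM (2.84, standard error 0.18, adjusted p = 1.14e-06, limma), and Plk2 was lower (-1.58). In the BCL2 family 9 of 15 genes were not called. The death-promoting Bcl2l11 (BIM) was higher, with 13, 18.3 and 16.2 FPKM against 3.95, 4.19 and 3.60 (1.98, standard error 0.15, adjusted p = 3.78e-06, limma), and Bak1 was lower (-0.99). Counts in this family, 3 higher and 3 lower, became 5 and 2 without replicate b and 11 and 1 as TPM, and they also moved without BME plus COL1 replicate a or c. Of 18 caspases and IAP genes 7 were higher and 10 lower (8 and 6 as TPM), with Casp1 at 2.09 and Cycs, the cytochrome c gene, at -1.31. Hypoxia targets had 9 of 24 higher and 6 lower (16 and 4 as TPM), and Ndrg1 (1.98) and Pgk1 (-0.90) lay on opposite sides. All 18 factors tested of the senescence-associated secretory phenotype were called, 9 in each direction, 8 and 9 of them at least 2-fold.

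Markers of lineage did not move as one. Of 6 tested mammary alveolar genes 3 were higher (5 as TPM) and none lower. Xdh, a component of the milk fat globule, had 24.6, 33.1 and 26.3 FPKM on BME and 0.887, 0.934 and 0.899 with COL1 (log2 change 4.79, standard error 0.16, adjusted p = 6.19e-08, limma), whereas Mfge8, of the same globule, had 126 to 134 against 116 to 119 FPKM and was not called (0.15), although it was called higher as TPM (0.49) and after median-ratio (0.33) and quantile scaling (0.61). Summed over the luminal and epithelial markers, levels were 789 to 1167 FPKM on BME and 2359 to 2467 with COL1, and over the mesenchymal markers 1950 to 2362 and 3062 to 3112. These sums rest mostly on abundant genes such as Krt8, Krt18 and Vim. By count, 2 of 8 tested luminal markers were higher and 6 lower (2 and 5 as TPM). Among 12 tested mesenchymal markers 4 were higher, 4 lower and 4 not called, with a median of -0.04 (0.31 as TPM). Vim was lower (-0.71, and -0.08 after quantile normalization), S100a4 was lower (-1.10) and Fn1 higher (0.55). The smooth muscle actin Acta2 stayed under 1 FPKM on BME and was at 3.28 to 3.58 with COL1. Fibroblast markers summed to 50.7 to 62.4 FPKM on BME and 4.68 to 4.89 with COL1, and all 4 tested were higher, namely Postn, Pdgfra, Pdgfrb (4.53) and Col1a1. The other 8 of 12 were below 1 FPKM in every day 5 library, Lum at 0 in all of them. Of 19 mast cell markers, only the tryptase Tpsab1 was tested. Tpsab1 had 27.4, 14 and 36.3 FPKM on BME and 0.0848, 0.0634 and 0.0413 with COL1 (7.22, standard error 0.32, adjusted p = 1.95e-07, limma). Kit, Cpa3 and Fcer1a were at 0 in every day 5 library, and Tpsb2 did not pass 0.0225. The untested Cma2 and Slc18a2 went the other way. Cma2 was at 0.128 to 0.723 FPKM on BME and 1.26 to 1.58 with COL1. Every Slc18a2 value on BME at day 5 was below those with COL1. Of 21 myeloid and lymphoid markers 20 were below 1 FPKM in each of the 6 libraries, and Cd14 differed by -0.39 and was not called, but it was called lower without BME day 5 replicate b (-0.64, adjusted p = 0.00647, limma). Trem2, a receptor known from macrophages and microglia, was at 13.5, 19.6 and 16.6 against 0.165, 0.127 and 0.124 FPKM (6.11, standard error 0.45, adjusted p = 2.59e-06, limma), and Gpnmb at 36.6, 39.8 and 37.4 against 1.05, 1.00 and 1.07 (5.06, standard error 0.10, adjusted p = 8.34e-09, limma). The adipocyte genes Pparg and Fabp4 (4.32) were higher, with Adipoq, Plin1 and Lep at or under 0.0368 FPKM.

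Prolactin-like genes varied between the BME cultures. The proliferins Prl2c2 (330, 79.2 and 329 FPKM on BME against 9.60, 9.10 and 8.76) and Prl2c3 (337, 91.3 and 293 against 13.9, 14.4 and 12.9) form a run with Prl2c4 on chromosome 13 (12883083 to 13097597, mm9). They are near-identical copies, and Prl2c3 and Prl2c4 overlap, so that the split of reads between them is uncertain. Their log2 changes were 4.47 (adjusted p = 3.62e-05, limma) and 3.91 (adjusted p = 5.77e-05, limma), and 5.16 and 4.51 without replicate b, in which both were lowest.

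Some of the genes with the largest changes belong to none of the classes above. Higher on BME were Enpp2, which encodes autotaxin, the enzyme that makes lysophosphatidic acid (94.2, 200 and 110 FPKM against 2.83, 2.94 and 2.85, log2 change 5.42), the retinaldehyde reductase Dhrs3 (5.57), Nrep (5.46), the unconventional myosin Myo7a (5.04) and Smpdl3a (4.84). Lower were the embryonic globin Hbb-bh1 (0.507, 0.0414 and 0.239 against 13.6, 14.4 and 14.7 FPKM, -5.54), U90926 (-5.03), the protease-activated receptor F2rl1 (-4.59), the natriuretic peptide Nppb (-4.03), the metalloprotease Adam8 (-3.74) and the adhesion receptor Eltd1 (-3.58, with -2.49 without replicate b and -4.23 without replicate a). The adjusted p of these 11 genes ranged from 2.27e-08 for Myo7a to 0.00160 for Eltd1 (limma).

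Levels at day 1 on BME, which shared neither day nor matrix with the BME plus COL1 cultures, are given for some of these genes as values alone. Mmp11 was at 9.12 ± 1.63 FPKM (SD, n = 3 cultures here and for the next values) at day 1, against 66.6 ± 19.3 on BME at day 5 and 2.53 ± 0.06 with COL1. Hmox1 was at 356 ± 95.3 at day 1, against 340 ± 20.4 and 30 ± 0.77, and Fst at 7.95 ± 1.81, against 6.52 ± 4.22 and 159 ± 4.44. Krt20 was at 98.1 ± 1.59 at day 1, beside its 104 ± 0.73 with COL1 and its 15.6 ± 7.15 on BME at day 5.

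Within genes, the ratio of the 2 most abundant transcripts could be tested for 501 genes, where both averaged 5 FPKM or more. It differed between the matrices in 208 (41.5%), and by at least 2-fold in 57 (11.4%). In H2afy, which encodes the histone variant macroH2A1, 2 transcripts that differ in 1 internal exon changed places. The one with the 100 nt exon (chromosome 13, 56191119 to 56191218, mm9) took 29.9%, 23.6% and 30.2% of the FPKM of the pair on BME and 78.6%, 79.4% and 76.8% with COL1, and the other holds a 91 nt exon in its place (56189613 to 56189703). The log2 change of their ratio was -3.20 (standard error 0.25, adjusted p = 2.74e-05, limma). In Limk2, a kinase that regulates cofilin and thereby actin, the transcript with the more downstream start on chromosome 11 (minus strand) took 64.9%, 67.2% and 62.3% on BME and 24.3%, 17.1% and 23.5% with COL1 (2.70, standard error 0.21, adjusted p = 2.74e-05, limma). Limk2 as a whole rose by 1.07. The other transcript of the pair, the more abundant one over all 9 libraries, did not rise (-0.08). In Rps24 a 20 nt exon that only the second transcript holds went with a share of the first of 54.1% to 57.7% on BME and 86.0% to 87.1% with COL1. Other pairs with large log2 changes of the ratio were those of Luc7l (-2.69), Ppp2r5c (-2.58), Shc1 (-2.17), Pex2 (2.11), Map2k7 (2.35), Pls3 (2.67) and Plxnb2 (4.46). The genes Map2k7 and Pex2 as wholes differed by 0.07 and 0.03 and were not called, but both were called higher as TPM (0.42 and 0.38) and after median-ratio and quantile scaling. The shares rest on how Cufflinks assigned the reads that transcripts have in common.

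**Figure D5:**
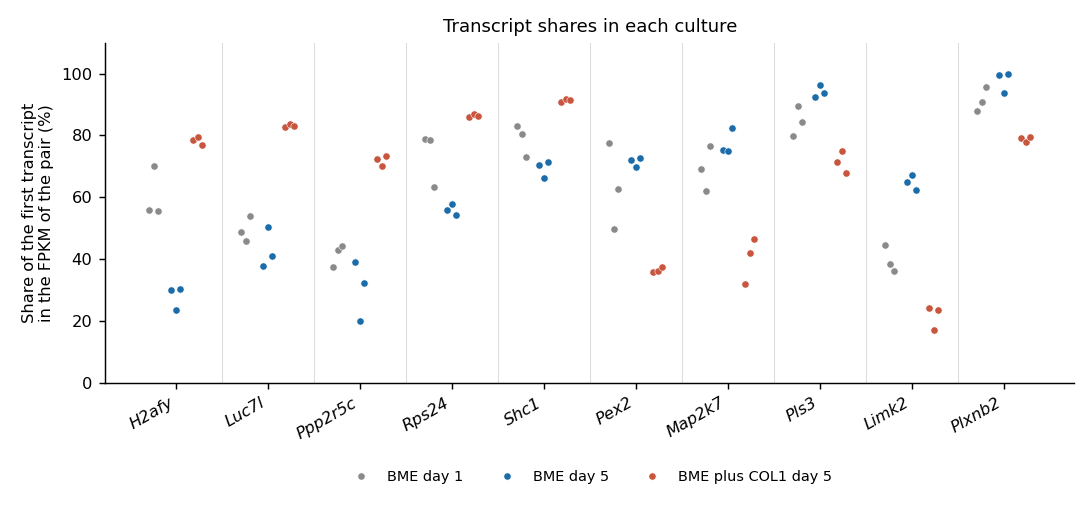
Share (%) of the first transcript in the summed FPKM of the 2 most abundant transcripts of 10 genes, for each culture (points) after 1 day on BME, 5 days on BME or 5 days on BME with COL1. In each gene the day 5 cultures of the 2 matrices do not overlap, with H2afy between 23.6% and 30.2% on BME and between 76.8% and 79.4% with COL1.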

How the data were processed

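RNA from 9 D2.0R cultures was sequenced on an Illumina HiSeq, after the cells had been released from the matrix in the cold. The submitters' processing notes name TopHat2 2.0.8, Trimmomatic 0.30, CASAVA 1.8.4, Partek and the builds mm9 and NCBIM37, and for Cufflinks a version was not given in the sources used here. The deposited values are FPKM per transcript, one file a library, estimated by the authors in Cufflinks over 30563 transcripts of RefSeq. Whether counting used strand is not stated, so genes that overlap on opposite strands cannot be told apart. Mitochondrial genome transcripts are not in the tables. The study's own test ran in Partek on alignments, which were not used here.

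FPKM were summed by gene symbol. A limma model of 3 group means, with its intensity trend, was applied to log2(FPKM + 0.1) of the 9 libraries (6 residual degrees of freedom), two-sided, with Benjamini-Hochberg adjustment over the 10456 genes. Log2 changes are BME day 5 minus BME plus COL1 day 5, on the scale with 0.1 added, which understates changes of low genes. Ratios of the 2 most abundant transcripts were fitted likewise. On simulated data for this comparison, with 200 of 10456 genes changed, the model recovered 41.5% (log2 change 0.5, 4 false calls), 88.0% (log2 change 1, 14 false calls) or 97.0% (log2 change 2, 7 false calls). The simulated noise was independent between genes. In the real data 75.8% of genes were called and BME day 5 replicate b stood apart across genes, so these rates need not hold there.

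Genes were sorted into 113 classes, described by counts and medians with no test of the class. The members and lists were chosen with earlier results of these data known. Named genes are the 15 largest rises and 15 largest falls among called genes averaging 5 FPKM or more, up to 2 rises and 2 falls of each class, all members of classes with at most 6 tested, runs of at least 3 neighbouring tested genes changed at least 4-fold, 5 transcript ratios in each direction, Mki67, Neat1 and Rn45s. Itgb1, Epcam, Ctsb, the partners in overlapping loci and untested markers were named after their values were seen. Some genes that the rule names are not reported here. Alternatives were other pseudocounts, filters, scalings, thresholds and fits, the most abundant transcript, a replicate block and leaving out each library. Tools were limma 3.58.1 in R 4.3.3, and numpy 2.4.6, pandas 2.3.3 and matplotlib 3.10.9 in Python 3.11.15.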

Additional observations from a re-analysis of the deposited data

How the results depend on the processing

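Of 378 called genes among the 393 that the naming rule gave, 348 kept their call under all 22 alternatives. Counts over all genes moved by more than 1.5 times in few settings. Without a filter on low values 1795 genes were at least 2-fold higher on BME, and with a mean of at least 5 FPKM 1922 were higher and 596 at least 2-fold higher, as more or fewer genes were tested. As TPM 4823 were higher, 1890 at least 2-fold higher and 919 at least 2-fold lower. Transcript ratios were called in 97 genes with both transcripts at 10 FPKM or more and in 119 at an adjusted p under 0.01, in place of 208. The sign turned for Adamts9 without BME day 5 replicate b (-0.329, and up to 0.208 with another library left out), Rgs10 (0.311), Bcl2l13 (0.161), Pls3 (0.064) and Ppp2r5c (0.079) as TPM, Bcl2l13 after median-ratio scaling (0.004), Txnrd1 (0.073), Pls3 (0.088) and Ppp2r5c (0.097) after quantile normalization, and Limk2 (-0.079), Pls3 (0.043) and Shc1 (-0.046) with the most abundant transcript. The cause was not tested. Between the day 5 groups, deviations of libraries with the same letter had correlations of -0.038, -0.115 and 0.086. Those of unlike letters reached from -0.18 to 0.18. Deviations from a mean of 3 libraries are tied to each other, so these values cannot decide whether a letter marks a common batch. With a replicate block 3099 genes were higher and 4723 lower, and 196 transcript ratios were called. Changes of genes near 0 FPKM in one group depend on the pseudocount. With 1 FPKM, Postn was at 4.43 and Ppbp at -3.83. With 3 cultures a group and 1 that stands apart, small changes on BME are the least certain.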
